A study of Mus musculus with 8 samples.

Results

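Gata3-negative Il7r Rora lymphoid cells of mouse bone marrow are described here in 4 droplet single-cell RNA libraries, one for each combination of donor genotype and retroviral construct. Cells were chosen by their own unique molecular identifiers (UMIs, each standing for 1 captured RNA molecule). A chosen cell had at least 1 UMI of Il7r, at least 1 of Rora and at least 1 among Il18r1, Cxcr6 and Ltb, and it had 0 UMIs of Gata3, Il1rl1, Cd3e, Cd3d, Cd3g and Cd79a. Cells had been kept if they showed 500 genes or more and 1000 UMIs or more, of which mitochondrial transcripts made up less than 10%. Of the 22078 cells kept, 230 met this rule (1.04%). The rule rests on measured values, so the levels of these 11 genes are given below as a description only.

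The libraries were Gli1KO_JAK2V617F (125 such cells), WT_JAK2V617F (40), Gli1KO_JAK2WT (41) and WT_JAK2WT (24). Marrow cells of 8-week-old WT or Gli1-/- donors were transduced with a retrovirus carrying JAK2V617F, the activating mutation of myeloproliferative neoplasms, or with control JAK2WT, and were given to female B6.SJL recipients of 8 to 10 weeks after 10.5 Gy of irradiation. Marrow was taken 112 days later from 3 mice of each condition, which were pooled. All 4 groups therefore share irradiation, transplantation and a retroviral construct, and no group was left untransplanted. CD11b, GR1, TER119, B220 and CD3 cells were depleted with magnetic beads before viable lineage-negative cells were sorted with and without GFP. Expression of the constructs starts in transduced donor stem and progenitor cells, and lymphocytes of the irradiated host can persist. With 1 pooled library per condition, differences between libraries had no replicate check and were not tested, and the intervals given cover counting error only.

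Lymphocytes that carry the interleukin-7 receptor chain Il7r and the nuclear receptor Rora without a T cell receptor complex are mostly innate lymphoid cells (ILCs). Group 2 ILCs depend on the transcription factor Gata3 and carry the interleukin-33 receptor Il1rl1, group 1 ILCs and natural killer (NK) cells use Tbx21 and make interferon gamma and cytotoxic granules, and group 3 ILCs and lymphoid tissue inducer (LTi) cells can carry Ccr6 or the receptor Ncr1. In mice, Ccr6-bearing group 3 ILCs are known to carry major histocompatibility complex (MHC) class II molecules, which present peptides to CD4 T cells.

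The chosen cells had median depths of 4752 UMIs in Gli1KO_JAK2V617F, 2768 in WT_JAK2V617F, 4359 in Gli1KO_JAK2WT and 2396 in WT_JAK2WT. All cells that passed the filter had medians of 13785, 13149.5, 17277 and 4187 UMIs in the same order of libraries. The chosen cells' UMIs summed to 730076, 172804, 227363 and 83401, so levels in WT_JAK2WT rest on the fewest molecules. In the order of libraries above, 12, 2, 2 and 2 cells were deeper than 10000 UMIs, and these held 30.1%, 42.8%, 21.5% and 27.5% of the summed UMIs. A doublet caller marked 17, 0, 2 and 4 of the chosen cells, and 38, 4, 10 and 12 held at least 10 UMIs of neutrophil granule genes. Libraries shared 11 to 33 barcodes pairwise, and 1 barcode of the chosen cells occurred in another library.

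The gate genes were detected unevenly. Ltb, a lymphotoxin subunit, had a UMI in 94.3% of the 230 cells, the interleukin-18 receptor Il18r1 in 75.2% and the chemokine receptor Cxcr6 in 66.5%. Il7r stood at 1452 CPM in Gli1KO_JAK2V617F, 1713 in WT_JAK2V617F, 1012 in Gli1KO_JAK2WT and 1355 in WT_JAK2WT, where CPM are summed UMIs scaled to a fixed total per library. Rora stood at 418 CPM in Gli1KO_JAK2V617F, 486 in WT_JAK2V617F, 374 in Gli1KO_JAK2WT and 588 in WT_JAK2WT. At the edge of the rule, 34 chosen cells held exactly 1 UMI of Il7r and 103 exactly 1 of Rora. Just outside it, 118 cells failed by a single UMI of Gata3 or Il1rl1, and 19 failed because none of Il18r1, Cxcr6 and Ltb was detected. Among Il1rl1-positive cells of the same gate, 25 of 248 (10.1%) held 0 UMIs of Gata3, so a cell without a Gata3 UMI is not shown to lack its RNA.

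The label lymphoid was set against markers. The general leukocyte gene Ptprc had a UMI in 87.4% of the cells, and Id2, the transcriptional repressor that all ILCs need, stood at 882 CPM in Gli1KO_JAK2V617F, 943 in WT_JAK2V617F, 1166 in Gli1KO_JAK2WT and 863 in WT_JAK2WT. Of the 10 B lineage genes 3 had 0 UMIs, among them Ms4a1 and Vpreb3, but antibody RNA was widespread, with 1020 UMIs of the light chain Igkc and 393 of the heavy chain Ighm. The 10 genes summed to 604, 284, 3417 and 2422 CPM in the order of libraries above. The recombination genes Rag1 and Rag2 had 0 UMIs, while the 9 common lymphoid progenitor genes they belong to summed to 158 to 444 CPM. The macrophage genes C1qa, C1qb and Cd5l were at 0 as well, and the 7 macrophage genes together ranged from 5.79 to 11.99 CPM. RNA of T cell receptor constant regions, which ILCs can transcribe from unrearranged loci, was found in 149 of 230 cells (64.8%), by library in 67.2%, 60%, 65.9% and 58.3%. It came mostly from Trbc1, Trbc2 and Tcrg-C4, while Trac had UMIs in 1.30% of the cells and Trdc in 4.78%. The 8 dendritic cell genes were sparse but none was at 0, and they summed to 74.0, 63.7, 48.4 and 48.0 CPM. Xcr1 had 3 UMIs, Clec9a and Siglech 2 each, Itgax 13, the transcription factor Zbtb46 14, Cd209a 19 and the cytokine receptor Flt3 21. Of the Cd209a UMIs 18 were in 1 cell of Gli1KO_JAK2V617F. The 10 granulocyte and monocyte genes summed to 6424, 12413, 4794 and 4376 CPM in the order of libraries above, and to 6346, 1863, 2027 and 4975 CPM in the cells of at most 10000 UMIs. The WT_JAK2V617F sum, the highest over all cells, was thus the lowest without its 2 deepest cells, and the source of this RNA in the chosen cells was not tested.

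Gata3-negative Il7r Rora cells took 1.93% of passing cells in Gli1KO_JAK2V617F (exact 95% interval 1.61 to 2.29), 1.11% in WT_JAK2V617F (0.795 to 1.51), 1.03% in Gli1KO_JAK2WT (0.737 to 1.39) and 0.300% in WT_JAK2WT (0.193 to 0.447). The share was 3.70 times as high with JAK2V617F as with JAK2WT in WT marrow (interval 2.23 to 6.12) and 1.88 times as high in Gli1 knockout marrow (1.32 to 2.67). It was 3.41 times as high in Gli1 knockout as in WT marrow with JAK2WT (2.06 to 5.64) and 1.73 times as high with JAK2V617F (1.22 to 2.47). The order of the libraries thus put Gli1KO_JAK2V617F highest and WT_JAK2WT lowest, while the intervals of WT_JAK2V617F and Gli1KO_JAK2WT lay over each other. A share of sorted cells can move with the other cells sorted, and the mixture in which GFP-positive and GFP-negative cells were loaded is not given in the sources used here.

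The cells of the same gate with at least 1 UMI of Gata3 or Il1rl1 had the same library order at both ends, at 4.08%, 1.58%, 2.30% and 0.814% (265, 57, 92 and 65 cells). Gata3-negative cells made up 32.1% of both kinds together in Gli1KO_JAK2V617F (27.4 to 36.9), 41.2% in WT_JAK2V617F (31.3 to 51.7), 30.8% in Gli1KO_JAK2WT (23.1 to 39.4) and 27.0% in WT_JAK2WT (18.1 to 37.4). All 4 intervals of this balance overlapped. After each cell had been thinned to 2000 UMIs before the rule was applied, the share ratio of JAK2V617F to JAK2WT was 4.29 in WT marrow and 1.35 (0.932 to 1.95) in Gli1 knockout marrow, and the ratio of Gli1 knockout to WT was 1.87 with JAK2V617F and 5.97 with JAK2WT.

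**Figure D1:**
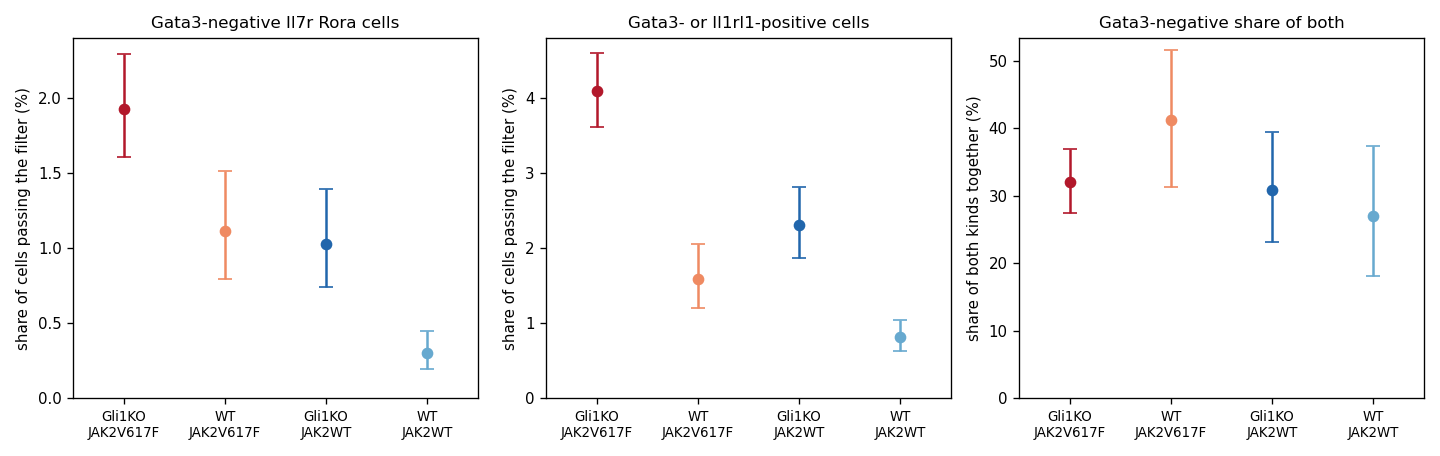
Shares of cells in each library, in percent, with exact 95% binomial intervals (counting error only, 1 pooled library per group). The left panel shows Gata3-negative Il7r Rora cells, the middle panel the Gata3- or Il1rl1-positive cells of the same gate, both as a share of cells passing the filter, and the right panel the Gata3-negative share of both kinds together. The left shares run from 1.93% in Gli1KO_JAK2V617F to 0.300% in WT_JAK2WT, while the right intervals overlap.

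GFP marks transduced cells. No GFP UMI was found in any of the 230 chosen cells, which allows a share of cells with a UMI of up to 1.30%, or by library up to 2.40%, 7.50%, 7.32% and 12.5%. Among the other cells of each library GFP was also rare, at 1.04% in Gli1KO_JAK2V617F, 2.75% in WT_JAK2V617F, 0.177% in Gli1KO_JAK2WT and 0.565% in WT_JAK2WT. Each library's limit lies above the share in its other cells, and a lower share in the chosen cells was not detectable at this depth. Sex-linked RNA offered another mark, since the recipients were female and cells of the Gli1 knockout libraries mostly carried Y-linked RNA. Of the chosen cells with Xist or Y-linked UMIs, 0 of 71 in Gli1KO_JAK2V617F and 0 of 29 in Gli1KO_JAK2WT had Xist alone, which allows up to 4.23% and 10.3%. The other typed cells had Xist alone in 0.930% and 3.50%. In WT_JAK2V617F and WT_JAK2WT all 38 and 22 typed cells had Xist alone, as had nearly all other cells there, so this mark cannot tell apart donor and host in those libraries. By this RNA, cells of the Gli1 knockout libraries were mostly male and those of the WT libraries mostly female. Donor genotype and cell sex therefore cannot be told apart in any comparison of Gli1 knockout with WT, the share ratios above included. Gli1 itself had 0 UMIs in the chosen cells, which checks nothing about the knockout.

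To describe what else marks these cells, their UMIs were summed per library and set against the sums of the Gata3- or Il1rl1-positive cells of the same gate in the same library, with edgeR's quasi-likelihood test and the library as a block. The rule had parted both sides by Gata3 and Il1rl1 in these same cells, so the calls describe the sides of the gate and are not independent support for the label. Of 5193 genes tested, 112 were higher (2.16%) and 37 lower (0.712%) in the Gata3-negative cells at an adjusted p under 0.05, and the median log2 fold change of all tested genes was -0.00417. The number of calls moved with the libraries and cells kept. It was 23 higher and 20 lower without Gli1KO_JAK2V617F, 210 and 85 without WT_JAK2V617F, 56 and 20 without Gli1KO_JAK2WT, and 90 and 28 without WT_JAK2WT. Without the library as a block, 26 genes were higher and 11 lower, and DESeq2 called 37 higher and 14 lower. With both kinds limited to cells of at most 10000 UMIs 150 were higher and 144 lower, and with each cell thinned to 2000 UMIs 103 and 95. Of the Gata3- or Il1rl1-positive cells 225 of 265, 57 of 57, 82 of 92 and 61 of 65 had at most 10000 UMIs, in the order of libraries above. They held 1022646 of 2082513, 173827 of 173827, 405521 of 650005 and 234449 of 322685 summed UMIs. The weight of deeper cells thus differed between both kinds of cells and between libraries.

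MHC class II genes stood out on the higher side. The invariant chain Cd74, which escorts class II molecules to the endosome, had 7113 CPM in Gli1KO_JAK2V617F, 5046 in WT_JAK2V617F, 5146 in Gli1KO_JAK2WT and 5479.6 in WT_JAK2WT in the Gata3-negative cells. In the Gata3- or Il1rl1-positive cells it had 1217 CPM in Gli1KO_JAK2V617F, 1973 in WT_JAK2V617F, 2537 in Gli1KO_JAK2WT and 338 in WT_JAK2WT. Every library of the Gata3-negative cells lay above every library of the other cells (log2 fold change 2.16, SE 0.334, adjusted p 0.0017 by edgeR's quasi-likelihood test). H2-Aa, the alpha chain of the I-A molecule, had 3169.5 CPM in Gli1KO_JAK2V617F, 1950.2 in WT_JAK2V617F, 2335 in Gli1KO_JAK2WT and 2038 in WT_JAK2WT in the Gata3-negative cells. It had 477 CPM in Gli1KO_JAK2V617F, 719 in WT_JAK2V617F, 1032 in Gli1KO_JAK2WT and 127 in WT_JAK2WT in the Gata3- or Il1rl1-positive cells, again with no overlap (log2 fold change 2.23, SE 0.324, adjusted p 0.0013 by edgeR). H2-Eb1, the beta chain of the I-E molecule, ranged from 1458 to 1964 CPM in the Gata3-negative cells and from 68.2 to 722 CPM in the Gata3- or Il1rl1-positive cells (log2 fold change 2.45, SE 0.374, adjusted p 0.0016 by edgeR).

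The peptide-exchange subunit H2-DMb2 ranged from 83.9 to 221 CPM in the Gata3-negative cells and from 6.20 to 46.2 CPM in the Gata3- or Il1rl1-positive cells (log2 fold change 2.62). H2-Ab1, the beta chain of I-A, showed the same lack of overlap, with 1013 to 1427 CPM in the Gata3-negative cells and 86.8 to 585 CPM in the Gata3- or Il1rl1-positive cells (log2 fold change 2.12). Ciita, the master activator of class II transcription, was sparse, with 21.99 to 83.9 CPM in the Gata3-negative cells and 3.10 to 7.69 CPM in the Gata3- or Il1rl1-positive cells (log2 fold change 2.48). Of a list of 10 class II genes 9 were tested, 6 were higher and 0 lower, with a median log2 fold change of 2.16. This list was drawn up after the values had been seen, and it is given as a description. All 10 genes together summed to 14145, 10127, 10758 and 11271 CPM in the Gata3-negative cells of the 4 libraries, against 2415, 3739, 5208 and 843 CPM in the Gata3- or Il1rl1-positive cells. The sum of the 8 dendritic cell genes lay in the same direction in each library, with 74.0, 63.7, 48.4 and 48.0 CPM against 27.9, 5.75, 26.2 and 37.2 CPM, and their part in the class II result was not tested. In cells of at most 10000 UMIs the chosen cells had 25.5, 30.4, 56.0 and 49.6 CPM of these genes and 12253, 12453, 9700 and 8347 CPM of the class II genes. The calls for Cd74, H2-Aa, H2-Eb1 and H2-DMb2 held without called doublets and in cells of at most 10000 UMIs, while DESeq2 gave Cd74 an adjusted p of 0.0702 and H2-Eb1 0.0541.

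Class II genes share a promoter module, the SXY module, whose Y box holds the letters ATTGG and is bound by the factor NF-Y. The promoters of H2-Aa, H2-Eb1 and H2-DMb2 are shown because these genes moved together, with each ATTGG in capitals on either strand (CCAAT where it lies on the other strand). The sequences are from RefSeq on GRCm38.p6, cover 250 bases before to 50 bases after the annotated start and are written 5′ to 3′ on the gene's strand.
H2-Aa, chr17:34287774-34288073, minus strand: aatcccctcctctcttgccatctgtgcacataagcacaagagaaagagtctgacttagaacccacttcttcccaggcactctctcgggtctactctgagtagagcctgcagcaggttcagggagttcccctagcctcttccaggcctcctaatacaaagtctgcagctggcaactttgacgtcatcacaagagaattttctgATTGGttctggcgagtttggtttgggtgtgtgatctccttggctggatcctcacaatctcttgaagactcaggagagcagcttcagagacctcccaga
H2-Eb1, chr17:34305617-34305916, plus strand: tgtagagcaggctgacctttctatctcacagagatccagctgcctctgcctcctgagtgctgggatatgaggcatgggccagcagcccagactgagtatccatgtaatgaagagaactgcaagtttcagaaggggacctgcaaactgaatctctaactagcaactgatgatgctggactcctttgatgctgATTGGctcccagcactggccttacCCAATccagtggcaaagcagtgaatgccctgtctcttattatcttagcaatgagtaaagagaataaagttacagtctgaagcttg
H2-DMb2, chr17:34144999-34145298, plus strand: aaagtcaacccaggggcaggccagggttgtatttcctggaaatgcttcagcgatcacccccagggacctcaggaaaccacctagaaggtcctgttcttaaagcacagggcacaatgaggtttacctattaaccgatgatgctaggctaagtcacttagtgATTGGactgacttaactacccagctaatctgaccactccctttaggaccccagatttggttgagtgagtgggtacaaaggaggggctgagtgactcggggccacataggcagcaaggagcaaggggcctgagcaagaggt
H2-Aa and H2-DMb2 each held 1 match and H2-Eb1 held 2, 1 on each strand. The same 5 letters occur in 12289 of 32851 promoters of this length (37.4%), so a match is a description of the sequence and not a bound site.

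Among the genes that the rule for naming took from the calls, Ncoa7, a coactivator of nuclear receptors, had 429 CPM in Gli1KO_JAK2V617F, 307 in WT_JAK2V617F, 396 in Gli1KO_JAK2WT and 359.7 in WT_JAK2WT in the Gata3-negative cells. It had 81.6 CPM in Gli1KO_JAK2V617F, 121 in WT_JAK2V617F, 122 in Gli1KO_JAK2WT and 9.30 in WT_JAK2WT in the Gata3- or Il1rl1-positive cells (log2 fold change 2.24, SE 0.330, adjusted p 0.0013 by edgeR). Hopx, a homeodomain-only cofactor, ranged from 47.96 to 158 CPM in the Gata3-negative cells and from 6.20 to 29.2 CPM in the Gata3- or Il1rl1-positive cells (log2 fold change 2.24). Bmp2, a secreted growth factor, ranged from 34.7 to 92.4 CPM in the Gata3-negative cells and from 6.20 to 26.2 CPM in the Gata3- or Il1rl1-positive cells (log2 fold change 2.21). The others were Ttn, which encodes titin (3.01), the lectin gene Clec2l (2.52) and the surface receptor Slamf7 (2.48). Bmp2 and Ttn did not pass without Gli1KO_JAK2V617F, at adjusted p of 0.175 and 0.201. Slamf7 did not pass in DESeq2, at 0.0777.

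NK and ILC1 genes were higher in the Gata3-negative cells. Of the 21 genes on the list 11 were tested, 8 were higher and 0 lower, with a median log2 fold change of 1.69 beside -0.00417 over all tested genes, of which 2.16% were higher. Ncr1, the activating receptor NKp46, had 463 CPM in Gli1KO_JAK2V617F, 347 in WT_JAK2V617F, 726 in Gli1KO_JAK2WT and 228 in WT_JAK2WT in the Gata3-negative cells. In the Gata3- or Il1rl1-positive cells it had 109 CPM in Gli1KO_JAK2V617F, 173 in WT_JAK2V617F, 311 in Gli1KO_JAK2WT and 27.9 in WT_JAK2WT (log2 fold change 1.66, SE 0.252, adjusted p 0.0015 by edgeR). In each library Ncr1 was higher in the Gata3-negative cells, although the ranges over libraries overlapped. Xcl1, a chemokine that attracts Xcr1-bearing dendritic cells, had 430.1 CPM in Gli1KO_JAK2V617F, 197 in WT_JAK2V617F, 831 in Gli1KO_JAK2WT and 71.9 in WT_JAK2WT in the Gata3-negative cells. It had 84.5 CPM in Gli1KO_JAK2V617F, 92.05 in WT_JAK2V617F, 174 in Gli1KO_JAK2WT and 30.99 in WT_JAK2WT in the Gata3- or Il1rl1-positive cells (log2 fold change 1.97, SE 0.245, adjusted p 3.0e-04 by edgeR), and both kinds of cells were lowest in WT_JAK2WT.

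The remaining 6 called genes of the list encode the receptors Klrk1 (NKG2D, log2 fold change 1.71), Klrd1 (CD94, 1.79), Klrb1c (NK1.1, 2.05) and Cd160 (1.81), the kinase Txk (1.08) and the granule protein Nkg7 (1.01). Klrd1 and Klrb1c were each lower in the Gata3-negative cells of WT_JAK2V617F, against the direction of the call. The transcription factors of the group were sparse, with Tbx21 at 11.99 to 70.4 CPM and Eomes at 0 to 41.1 CPM over the libraries of Gata3-negative cells. Interferon gamma, the cytokine of the group, had 0 to 26.4 CPM, and the granzyme gene Gzma had 0 to 30.1 CPM. For scale, Ncr1-positive cells of the same marrow with 0 Il7r UMIs had 0 to 939 CPM of Gzma.

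ILC3 and LTi genes were in part higher. Of 20 genes on the list 9 were tested, 5 were higher and 0 lower, with a median log2 fold change of 1.21, while 2.16% of all tested genes were higher. The membrane protein Tmem176b ranged from 1307 to 2463 CPM in the Gata3-negative cells and from 375 to 1007 CPM in the Gata3- or Il1rl1-positive cells, with no overlap (log2 fold change 1.21, SE 0.193, adjusted p 0.0018 by edgeR). Tmem176a, its neighbour and partner, did the same. It had 947 to 1390.3 CPM in the Gata3-negative cells and 378 to 547 CPM in the Gata3- or Il1rl1-positive cells. Both genes were also found in most cells with at least 10 UMIs of the granulocyte enzyme Mpo. Tmem176b had a UMI in 94.3% of the chosen cells and 85.6% of these Mpo-rich cells, and Tmem176a in 88.7% and 79.3%. After thinning to equal depth the shares were 90.0% and 37.6% for Tmem176b and 82.0% and 22.7% for Tmem176a. What part of this RNA came from outside the chosen cells was not tested. Ccr6, the receptor for the chemokine CCL20, had 87.7 CPM in Gli1KO_JAK2V617F, 11.6 in WT_JAK2V617F, 74.8 in Gli1KO_JAK2WT and 108 in WT_JAK2WT in the Gata3-negative cells. It had 9.60 CPM in Gli1KO_JAK2V617F, 28.8 in WT_JAK2V617F, 20 in Gli1KO_JAK2WT and 0 in WT_JAK2WT in the Gata3- or Il1rl1-positive cells (log2 fold change 2.57, SE 0.525, adjusted p 0.01 by edgeR). WT_JAK2V617F did not share the direction of the call, but its 11.6 CPM lay under 17.4 CPM, the limit for a count of 0 there. In that library Ccr6 had a UMI in 5.0% of 40 Gata3-negative and 5.26% of 57 Gata3- or Il1rl1-positive cells. Lta, the secreted lymphotoxin subunit, had a log2 fold change of 2.13, and Ncr1 counts on this list too. The effector cytokine genes Il22 and Il17a had UMIs in 0 of 230 cells, which allows a share of cells with a UMI of up to 1.30% for each.

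ILC2 genes were lower in the Gata3-negative cells, which the rule had parted from the others by Gata3 and Il1rl1, so this is a description. Of 20 genes on the list 8 were tested, 0 were higher and 5 lower, with a median log2 fold change of -1.36. Over all tested genes 0.712% were lower. Il17rb, the interleukin-25 receptor, had 4.11 CPM in Gli1KO_JAK2V617F, 11.6 in WT_JAK2V617F, 4.40 in Gli1KO_JAK2WT and 35.97 in WT_JAK2WT in the Gata3-negative cells. In the Gata3- or Il1rl1-positive cells it had 71.1 CPM in Gli1KO_JAK2V617F, 155 in WT_JAK2V617F, 81.5 in Gli1KO_JAK2WT and 177 in WT_JAK2WT, with no overlap (log2 fold change -3.60, SE 0.378, adjusted p 8.6e-05 by edgeR). Hs3st1, a heparan sulphate sulphotransferase, ranged from 0 to 11.6 CPM in the Gata3-negative cells and from 30.99 to 144 CPM in the Gata3- or Il1rl1-positive cells, likewise with no overlap (log2 fold change -4.44, SE 0.469, adjusted p 8.6e-05 by edgeR). The costimulator Icos (-1.17), the leukotriene receptor Cysltr1 (-1.55) and the LIM-domain gene Lmo4 (-1.10) completed the group. Il13, Il5, Areg, Rxrg and Ccr8 had 0 UMIs in the chosen cells.

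Other genes that were lower are not on that list. Bcl11b, a transcription factor of T cells and ILC2, had 10.96 CPM in Gli1KO_JAK2V617F, 28.9 in WT_JAK2V617F, 30.8 in Gli1KO_JAK2WT and 119.9 in WT_JAK2WT in the Gata3-negative cells. It had 93.2 CPM in Gli1KO_JAK2V617F, 196 in WT_JAK2V617F, 117 in Gli1KO_JAK2WT and 205 in WT_JAK2WT in the Gata3- or Il1rl1-positive cells (log2 fold change -2.17, SE 0.350, adjusted p 0.0018 by edgeR; adjusted p 0.085 without the block). The ubiquitin ligase Rnf128 (-4.05), the scavenger receptor Stab2 (-4.02), the amino acid transporter Slc7a8 (-2.60), the cilium-trafficking gene Lztfl1 (-2.20), the lysophospholipid acyltransferase Lpcat2 (-2.12), the actin-severing protein gelsolin (Gsn, -2.07) and the gut-homing receptor Ccr9 (-2.01) also fell by edgeR. Gsn and Ccr9 did not pass without the block (adjusted p 0.374 and 0.307) or in DESeq2 (0.145 and 0.0867), and Ccr9 reached 144 CPM in 3 Gata3-negative cells of WT_JAK2WT. Lpcat2 did not pass without Gli1KO_JAK2V617F (0.0576).

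The developmental and signalling lists are read against the 2.16% of all tested genes that were higher and the 0.712% that were lower. Of 18 ILC precursor genes 15 were tested, and Cd7 (1.41) and the interleukin-2 receptor chain Il2rb (1.58) were higher while Bcl11b was lower. Tcf7, the transcription factor of early ILC precursors, had 132 to 255 CPM in the Gata3-negative cells, and Zbtb16, which marks the committed precursor, 12.3 to 43.98 CPM. Of 12 tested genes of interleukin-7 receptor signalling 0 passed in either direction, with a median log2 fold change of 0.18, and Jak2, the kinase that the retrovirus carries, had 79.4 to 156 CPM. Of 9 tested cytokine receptor genes Il18rap (1.30), Ifngr1 (1.28) and Il2rb were higher. Of 11 tested chemokine and egress receptors Cxcr3 (1.62), Gpr183 (0.98), Ccr7 (1.64) and Ccr6 were higher and Ccr9 lower. Of 15 tested lymphoid transcription factors Bcl11b was lower and 0 were higher. In lists of this length 1 called gene is already a larger share than that over all genes. A count of 0 or 1 therefore says nothing of the list.

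T cell receptor RNA ran the other way from the NK genes. Of 4 tested constant-region genes 2 were lower in the Gata3-negative cells, Trbc1 (log2 fold change -1.19, SE 0.301, adjusted p 0.042 by edgeR) and Tcrg-C1 (log2 fold change -2.20, SE 0.381, adjusted p 0.003 by edgeR). Any constant-region UMI was seen in 64.8% of the Gata3-negative cells and in 85.6% of the Gata3- or Il1rl1-positive cells. When cells with such a UMI were removed from both kinds, 3 libraries and 1242 genes could be tested, 3 genes were higher and 0 lower by edgeR, and 97 and 31 were so at an unadjusted p under 0.05. H2-Aa then had a log2 fold change of 3.04 (adjusted p 0.0697) and H2-DMb2 3.79 (0.0537). Cells that passed the same gate with a Cd3 UMI numbered 9, 1, 3 and 22, too few in all but 1 library for a fit. B lineage, erythroid, granulocyte and glycolysis genes gave 0 calls in either direction among 3, 6, 9 and 9 tested genes.

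**Figure D2:**
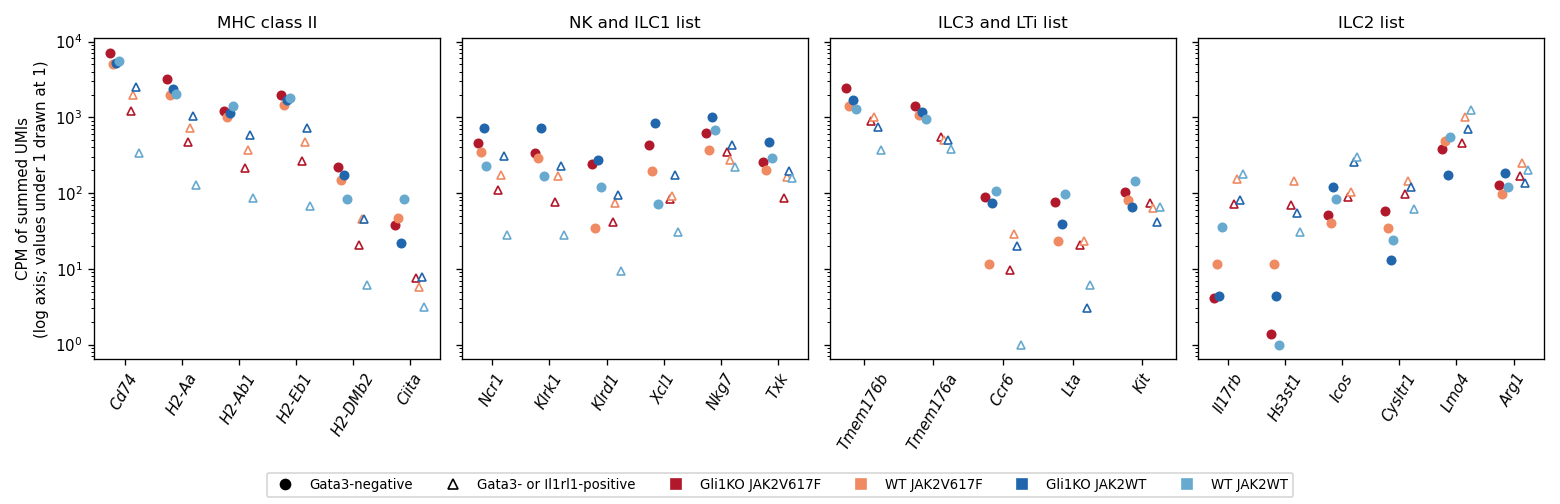
Level of genes from 4 lists in each library, in CPM of summed UMIs on a log axis. Filled circles are Gata3-negative Il7r Rora cells and open triangles the Gata3- or Il1rl1-positive cells of the same gate; colours are the 4 libraries. All filled points of Cd74, H2-Aa and Tmem176b lie above all open ones, those of Il17rb and Hs3st1 lie below, and those of Arg1 overlap.

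Within the chosen cells MHC class II was unevenly spread. Cd74, H2-Aa, H2-Ab1 and H2-Eb1 together reached at least 2000 CPM in 125 of 230 cells (54.3%), and 32 cells had 0 UMIs of all 4 genes. By library the share was 56.0% of 125 cells in Gli1KO_JAK2V617F, 62.5% of 40 in WT_JAK2V617F, 46.3% of 41 in Gli1KO_JAK2WT and 45.8% of 24 in WT_JAK2WT, with exact 95% intervals that all overlapped. The same level was reached in 27.3% of the Gata3- or Il1rl1-positive cells and 9.89% of Ncr1-positive cells without Il7r. Of cells with at least 10 UMIs of Mpo, a granulocyte enzyme, 1.93% reached it, at much greater depth (median 17350 to 28772 UMIs). The level of 2000 CPM was chosen after the values were seen, 34 cells lay near it, and what follows is a description with no test.

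Klrk1, Xcl1 and Klrd1 lay mostly in other cells than class II. Klrk1 had a UMI in 20% of the class II-high cells and in 69.5% of the class II-low cells, Xcl1 in 16.8% and 63.8% and Klrd1 in 8.0% and 47.6%. In the cells with at least 10 UMIs of Mpo, which should lack them, these genes had a UMI in 4.71%, 1.26% and 3.02%. Nkg7 was in 44.8% of the class II-high and 85.7% of the class II-low cells. Over all chosen cells its share was 63.5%, against 93.8% of the cells with at least 10 UMIs of Mpo, and 54.5% against 57.1% after thinning to 2000 UMIs. The cells with Mpo thus do not lack Nkg7 and give no background level for it. What part of the Nkg7 RNA came from outside the chosen cells was not tested. Granule RNA was also higher in class II-low cells over all 4 libraries together, with 761 CPM of Mpo in class II-high and 1280 in class II-low cells and 1082 and 1599 CPM of Elane. In cells of at most 10000 UMIs Nkg7 stood at 257 CPM in class II-high and 1404 in class II-low cells, while Mpo stood at 346 and 465 CPM and Elane at 460 and 502 CPM. Ncr1 had a UMI in 36.8% of the class II-high cells and in 75.2% of the class II-low cells, so the receptor occurred on both sides. The gap in Ncr1 was wide in Gli1KO_JAK2V617F (31.4% and 85.5%) and Gli1KO_JAK2WT (52.6% and 90.9%) and narrow in WT_JAK2V617F (48.0% and 53.3%) and WT_JAK2WT (18.2% and 30.8%). Klrk1 was seen in fewer class II-high than class II-low cells in each library, with 15.7% and 78.2%, 20% and 53.3%, 42.1% and 81.8%, and 9.09% and 30.8%. Ccr6 ran the opposite way, with 46 of 125 class II-high cells (36.8%) and 2 of 105 class II-low cells (1.90%). By library Ccr6 was in 44.3% and 1.82%, 8.0% and 0%, 47.4% and 0%, and 36.4% and 7.69%. Depth was greater in class II-high cells of each library, with median UMIs of 4872, 2848, 4959 and 3289 against 4390, 2430, 4096 and 1964 in class II-low cells. Shares of cells with a UMI can move with depth.

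**Figure D3:**
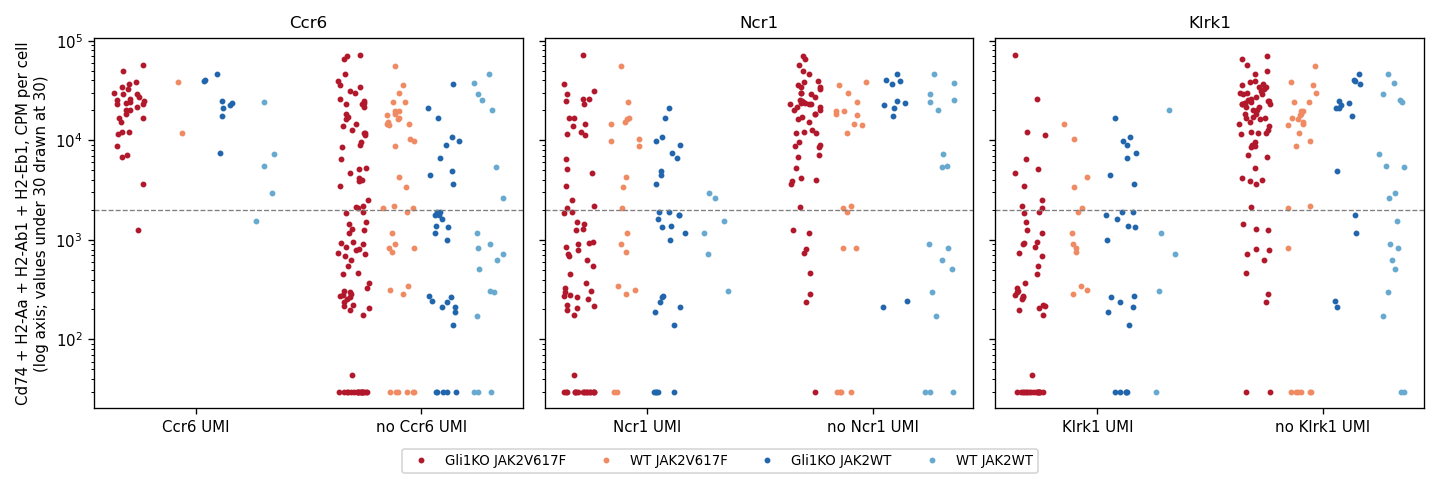
Summed Cd74, H2-Aa, H2-Ab1 and H2-Eb1 in each of the 230 Gata3-negative Il7r Rora cells, in CPM on a log axis, split by whether the cell had a UMI of Ccr6, Ncr1 or Klrk1; colours are the 4 libraries and the dashed line is 2000 CPM. All but 2 cells with a Ccr6 UMI lie above the line, and cells with a Klrk1 UMI lie mostly below it (73 below, 25 above).

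The summed levels extended this split to more genes, and each gene named next lay in the same direction in all 4 libraries unless said otherwise. Class II-high cells had 128 CPM of Ccr6 and class II-low cells 3.93, and the values were 116 and 1.97 for Bmp2, 649 and 55.1 for Ncoa7, and 176 and 27.5 for Batf3, a transcription factor of the AP-1 family. Lta stood at 96.4 and 17.7 CPM and Il17re, the interleukin-17C receptor, at 53.9 and 3.93. Genes that dendritic cells also use lay on the same side, with 53 UMIs of the actin-bundling gene Fscn1 in class II-high and 0 in class II-low cells, 50 and 0 of the chemokine Cxcl16, 57 and 1 of the surface protein Cd83, 107 and 19 of the transcription factor Relb, and 13 and 1 of Zbtb46. The Fscn1 UMIs came from 6 cells and those of Cxcl16 from 8. In class II-high cells of at most 10000 UMIs Fscn1 stood at 16.98 CPM against 75.2 over all class II-high cells, Cxcl16 at 8.49 against 70.9 and Cd83 at 44.6 against 80.8, while Batf3 stood at 231 against 176. Fscn1 had 0 UMIs in the WT_JAK2V617F and WT_JAK2WT libraries and Zbtb46 0 in WT_JAK2WT, and what part dendritic cells have in the class II-high cells was not tested. Il7r itself was at 1709 CPM in class II-high cells and 972 in class II-low cells. Class II-low cells had more of Klrk1 (126 CPM in class II-high and 757 in class II-low cells), Klrd1 (62.4 and 415), Nkg7 (254 and 1237), Il2rb (126 and 500), Cxcr3 (73.7 and 254) and Tbx21 (12.8 and 82.6). Among the genes higher than in Gata3- or Il1rl1-positive cells, therefore, Ccr6, Bmp2, Ncoa7 and Lta came mostly from class II-high cells and the killer-receptor genes mostly from class II-low cells.

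**Figure D4:**
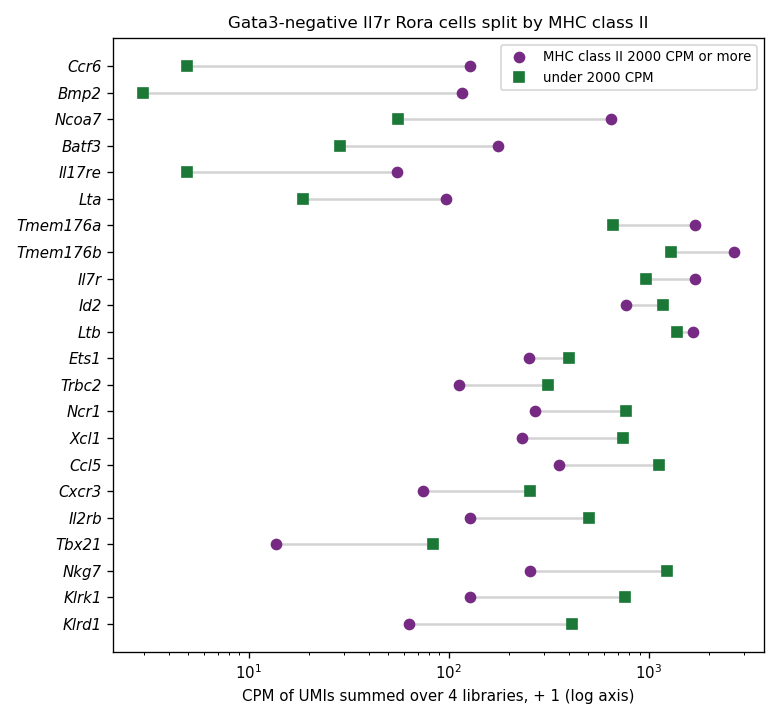
Level of named genes in Gata3-negative Il7r Rora cells with at least 2000 CPM of summed MHC class II RNA (circles, 125 cells) and under it (squares, 105 cells), as CPM of UMIs summed over 4 libraries plus 1 on a log axis. Ccr6, Bmp2 and Ncoa7 lie higher in the first kind, Klrd1, Klrk1 and Nkg7 in the second, and the 2 points of Ltb lie close together. Id2 lies somewhat lower in the first kind (771 and 1180 CPM), as it did in each of the 4 libraries.

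The libraries were then compared within the Gata3-negative cells, as a description. Among genes that reached 50 CPM on either side, 576 of 3972 (14.5%) were at least 2-fold higher and 472 (11.9%) lower with JAK2V617F than with JAK2WT in WT marrow, and 137 of 3785 (3.62%) higher and 76 (2.01%) lower in Gli1 knockout marrow. In Gli1 knockout over WT marrow, 162 of 3848 (4.21%) were higher and 127 (3.30%) lower with JAK2V617F, and 492 of 3900 (12.6%) higher and 396 (10.2%) lower with JAK2WT. Both comparisons with large counts contain WT_JAK2WT, which had 24 cells and the fewest UMIs. All ratios had 10 CPM added to both levels. The comparisons share libraries with each other and are not independent. Those of Gli1 knockout with WT also set mostly male against mostly female cells.

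A few genes differed broadly over cells. Tpm3-rs7, a tropomyosin-related retrogene at chr14:113314608-113316754 (mm10), had UMIs in 60 of 125 cells of Gli1KO_JAK2V617F, 0 of 40 of WT_JAK2V617F, 27 of 41 of Gli1KO_JAK2WT and 0 of 24 of WT_JAK2WT. Its level was 134 CPM in Gli1KO_JAK2V617F, 0 in WT_JAK2V617F, 207 in Gli1KO_JAK2WT and 0 in WT_JAK2WT. All other cells of the libraries had 153, 3.98, 143 and 4.18 CPM. The same split between Gli1 knockout and WT libraries, which differ in donor genotype and in cell sex, was thus seen outside the chosen cells. It is a related sequence of Tpm3 and may share reads with it, so its level is uncertain. Klrb1b, an inhibitory receptor of the NK gene complex, went the other way, with 5.48 CPM in Gli1KO_JAK2V617F, 179 in WT_JAK2V617F, 13.2 in Gli1KO_JAK2WT and 228 in WT_JAK2WT, and UMIs in 4, 17, 3 and 11 cells. The Gata3- or Il1rl1-positive cells had 2.40 CPM in Gli1KO_JAK2V617F, 132 in WT_JAK2V617F, 0 in Gli1KO_JAK2WT and 6.20 in WT_JAK2WT, and all other cells at most 1.71 CPM. Reads may be shared among the Klrb1 family, so this level is uncertain too.

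Among genes that differed by construct was Jchain, the joining chain of secreted antibodies, with 23.3 CPM in Gli1KO_JAK2V617F, 17.4 in WT_JAK2V617F, 268 in Gli1KO_JAK2WT and 312 in WT_JAK2WT. It was lower with JAK2V617F in both genotypes (log2 ratio -3.56 in WT and -3.06 in Gli1 knockout marrow), and so it was in all other cells, with 611, 316, 7469 and 3517 CPM. Of the B lineage list 3 genes were compared, Igkc, Ighm and Iglc2, and all 3 were at least 2-fold lower with JAK2V617F in both genotypes (median log2 ratio -2.81 in WT and -2.84 in Gli1 knockout marrow). Of all genes compared, 11.9% were so in WT and 2.01% in Gli1 knockout marrow. Igha did not follow in Gli1 knockout marrow, with 58.9 CPM in Gli1KO_JAK2V617F, 11.6 in WT_JAK2V617F, 83.6 in Gli1KO_JAK2WT and 276 in WT_JAK2WT (log2 ratio -3.73 in WT and -0.44 in Gli1 knockout marrow). The part of RNA from outside the cell in this signal was not tested. Ifitm1, an interferon-induced membrane protein, had 271 CPM in Gli1KO_JAK2V617F, 272 in WT_JAK2V617F, 13.2 in Gli1KO_JAK2WT and 35.97 in WT_JAK2WT, with UMIs in 68, 11, 1 and 1 cells, and log2 ratios of JAK2V617F over JAK2WT of 2.62 in WT and 3.60 in Gli1 knockout marrow. The other cells had 1022, 799, 210 and 71.8 CPM of Ifitm1, and 1 cell held 68.1% of its UMIs in WT_JAK2V617F.

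NK and ILC1 genes differed most in the comparison of Gli1 knockout with WT marrow under JAK2WT. There 8 of 11 genes were at least 2-fold higher and 0 lower, beside 12.6% and 10.2% of all genes compared. Their median log2 ratio was 1.63 beside 0.05 over all genes. Under JAK2V617F 2 of 9 were higher and 0 lower (median 0.62), beside 4.21% and 3.30% of all genes. The summed level of the NK and ILC1 list was 3299.7 CPM in Gli1KO_JAK2V617F, 2008 in WT_JAK2V617F, 6448 in Gli1KO_JAK2WT and 2278 in WT_JAK2WT. In the Gata3- or Il1rl1-positive cells the same sums were 1022, 1536, 2229 and 1206 CPM. In chosen cells of at most 10000 UMIs the list summed to 4193, 3149, 7785 and 2942 CPM. Its median log2 ratio of Gli1 knockout over WT was then 1.23 over 12 genes with JAK2WT and 0.26 over 11 genes with JAK2V617F. Ccl5, a chemokine of cytotoxic cells, had 475 CPM in Gli1KO_JAK2V617F, 307 in WT_JAK2V617F, 1733 in Gli1KO_JAK2WT and 324 in WT_JAK2WT in the Gata3-negative cells and was highest in Gli1KO_JAK2WT. Cd2, an adhesion receptor, and the granzyme inhibitors Serpinb6b and Serpinb9 had 132, 119 and 114 CPM in Gli1KO_JAK2WT and 0 UMIs in the 24 cells of WT_JAK2WT, where 0 UMIs allow up to 36.0 CPM.

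Immediate early and AP-1 genes, which respond to stimulation and to cell handling, were highest in WT_JAK2V617F. Of 11 such genes compared, 8 were at least 2-fold higher and 0 lower with JAK2V617F than with JAK2WT in WT marrow (median log2 ratio 1.59). Over all genes of that comparison, which rests on 24 cells of WT_JAK2WT, 14.5% were higher and 11.9% lower (median 0.11). In Gli1 knockout marrow 0 of 11 passed 2-fold (median -0.01), beside 3.62% higher and 2.01% lower over all genes. The 15 genes summed to 4269 CPM in Gli1KO_JAK2V617F, 7199 in WT_JAK2V617F, 4236 in Gli1KO_JAK2WT and 2746 in WT_JAK2WT. In the Gata3- or Il1rl1-positive cells they summed to 4492, 10919, 5746 and 4741 CPM. Fos had 582 CPM in Gli1KO_JAK2V617F, 1534 in WT_JAK2V617F, 321 in Gli1KO_JAK2WT and 479.6 in WT_JAK2WT in the Gata3-negative cells. Junb had 692 CPM in Gli1KO_JAK2V617F, 1256 in WT_JAK2V617F, 761 in Gli1KO_JAK2WT and 372 in WT_JAK2WT in the same cells. Of MHC class II genes at most 1 of the 8 or 9 compared passed 2-fold in any of the 4 comparisons.

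Many of the largest ratios came from 1 cell. In Gli1KO_JAK2V617F 1 cell held 88.9% of the S100a8 UMIs, 82.5% of S100a9 and 91.5% of Ltf, all genes abundant in neutrophils. In WT_JAK2V617F 1 cell held 57.1% of the UMIs of the granule protease gene Prtn3, and in WT_JAK2WT 1 cell held 81.3% of those of the ferritin gene Fth1 and 83.3% of those of Basp1. Fth1 was lower with JAK2V617F than with JAK2WT in WT marrow over all chosen cells (log2 ratio -1.76), and in cells of at most 10000 UMIs the ratio was 0.56. S100a8 was higher with JAK2V617F in Gli1 knockout marrow (log2 ratio 3.50), and the ratio was 0.20 without called doublets. The levels of these genes were thus set largely by single cells.

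**Figure D5:**
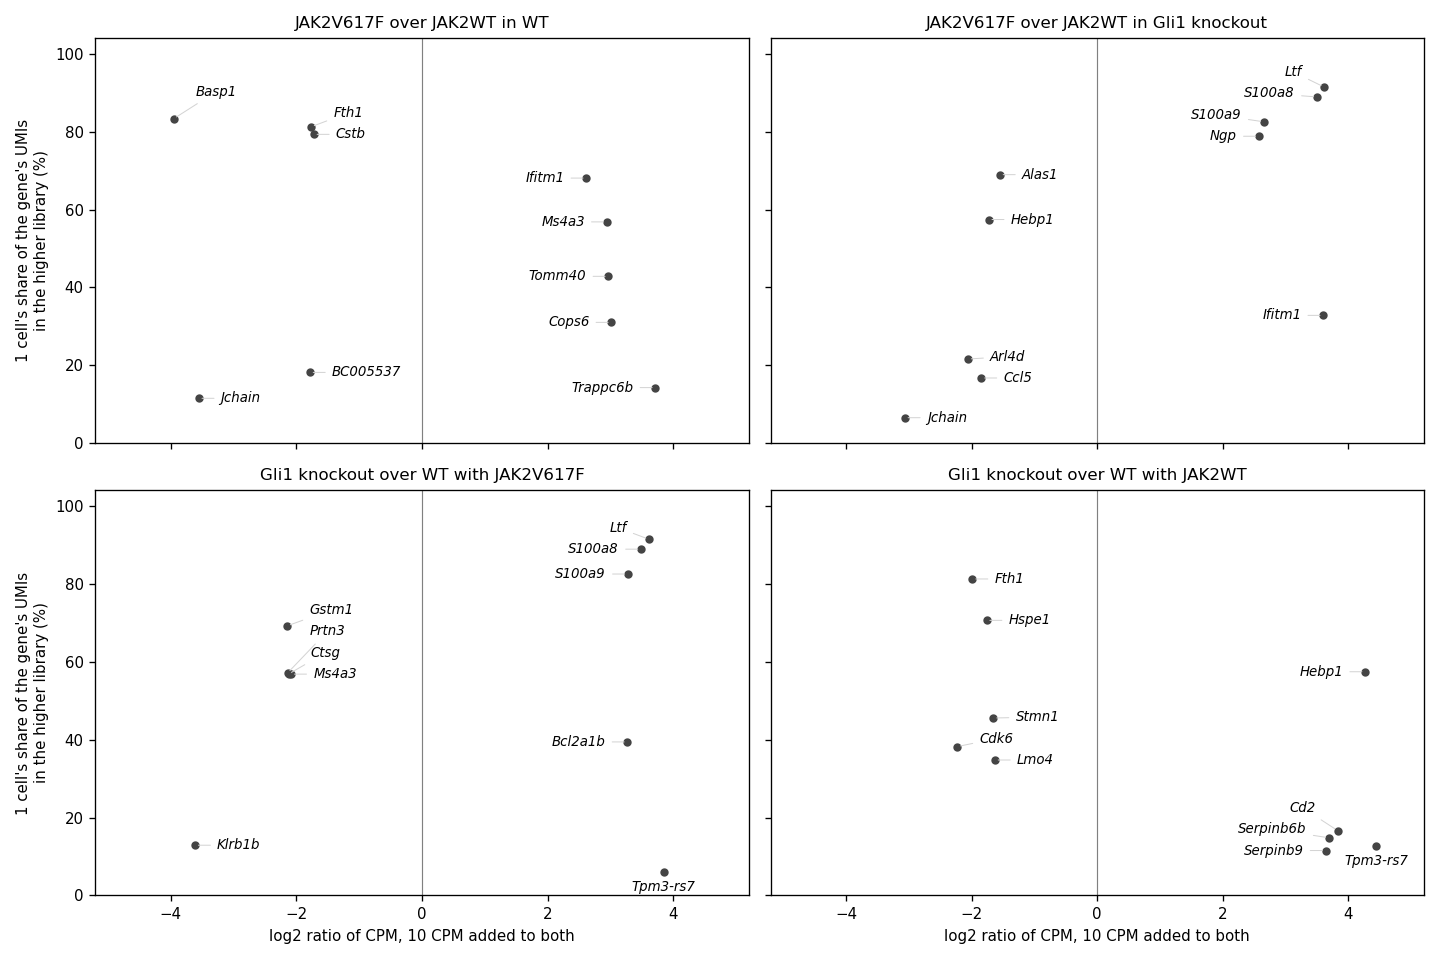
The 5 highest and 5 lowest genes of each library comparison within Gata3-negative Il7r Rora cells, with the log2 ratio of CPM (10 CPM added to both levels) across and, upward, the percent of the gene's UMIs in the higher library that came from its top cell. Ltf, S100a8 and S100a9 lie near the top on the right, Fth1 and Basp1 near the top on the left, and Tpm3-rs7, Klrb1b and Jchain near the bottom.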

How the data were processed

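The deposited values are counts, raw UMIs per gene and cell barcode of 4 single-cell RNA libraries with no normalisation, per the file headers. The submitters' processing notes name Cell Ranger 4.0.0, mm10 and, without a role, Seurat 4.0.4. The 4 hashing-tag samples were not analysed here, and no cell is assigned to its mouse. Cells were filtered as stated in the report. Doublets were kept; those with the highest Scrublet scores (scanpy 1.11.5, 0.8% of cells per 1000 barcodes) were removed in an alternative. The cells and lists were chosen with earlier results of these data known. Of 332 listed genes 330 were in the files. Values of some listed genes are not reported here.

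UMIs were summed per library and cell type over libraries with at least 10 cells of both kinds and tested with edgeR 4.0.16 (TMM, filterByExpr, quasi-likelihood) in R 4.3.3, with Benjamini-Hochberg adjustment over all genes tested and the 11 gate genes left out of the calls. The block is the library, since both kinds of cells of 1 library come from the same pooled mice; the mice of a pool cannot be told apart. The p-values measure how the difference between both kinds of cells varied over 4 libraries of different conditions. On simulated counts the test was checked for known changes. Between libraries no test was run. Named genes were the 10 highest and 10 lowest called with at least 50 CPM and the same sign in every library, the 5 highest and 5 lowest ratios of each library comparison with at least 100 CPM, 20 UMIs and 5 cells, and the more abundant genes of the lists; ribosomal, mitochondrial, predicted, antigen receptor and sex-linked genes were left out of these. Genes outside the rule, among them Ccr6, Ciita, Bmp2 in the class II split, Batf3, Il17re, Fscn1, Cxcl16, Cd83 and Relb, were chosen after their values were seen. Intervals of shares are exact Clopper-Pearson and those of ratios log-normal, both at 95%. A count of 0 was given a limit of 3 counts. UMIs count molecules, and neither intervals nor limits cover differences between mice. Gene coordinates are from GENCODE M21 (30934 of 31054 identifiers matched).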

Additional observations from a re-analysis of the deposited data

Results flagged for a closer look

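The change with JAK2V617F over JAK2WT ran in opposite directions in the 2 donor genotypes for 3 genes named in the report. The difference between genotypes was not tested, since each condition is 1 library. S100a8, a calcium-binding protein gene abundant in neutrophils, had a log2 ratio of 3.50 in Gli1 knockout cells and -1.50 in WT cells. S100a9, its partner subunit, had 2.65 in Gli1 knockout cells and -1.30 in WT cells. In Gli1KO_JAK2V617F 1 cell held 88.9% of the S100a8 and 82.5% of the S100a9 UMIs, and without called doublets the Gli1 knockout ratios were 0.20 for both genes. Alas1, the first enzyme of haem synthesis, had a log2 ratio of -1.55 in Gli1 knockout cells and 2.29 in WT cells. In Gli1KO_JAK2WT 1 cell held 69.0% of the Alas1 UMIs. The Gli1 knockout ratio of Alas1 was -0.33 without called doublets and -0.42 in cells of at most 10000 UMIs.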

How the results depend on the processing

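With the libraries left out in turn, genes higher than in the Gata3- or Il1rl1-positive cells numbered 23 (without Gli1KO_JAK2V617F) to 210 (without WT_JAK2V617F), and lower ones 20 (without Gli1KO_JAK2V617F or Gli1KO_JAK2WT) to 85 (without WT_JAK2V617F), against 112 and 37 over all libraries. With no replicate block 26 were higher and 11 lower, without a filter on low counts 198 and 103, in DESeq2 37 and 14, without T cell receptor RNA 3 and 0 in 3 libraries (97 and 31 at an unadjusted p under 0.05). Lower calls numbered 95 after thinning to 2000 UMIs and 144 in cells of at most 10000 UMIs. Fewer genes were tested in several of these, and the cause of each move was not tested. The share ratio of Gli1 knockout over WT with JAK2WT was 6.02 under a stricter cell filter and 5.97 after thinning, against 3.41. Genes past 2-fold within the Gata3-negative cells numbered, in the order JAK2V617F over JAK2WT in WT, in Gli1 knockout, Gli1 knockout over WT with JAK2V617F and with JAK2WT, 348, 42, 80 and 271 with 50 CPM added, 425, 83, 107 and 344 with at least 100 CPM, and 1587, 891, 1193 and 1999 without T cell receptor RNA, against 1048, 213, 289 and 888. The third of these was 460 without called doublets, 527 in cells of at most 10000 UMIs and 476 with equal weight per cell, and the fourth 1337 with equal weight. Log2 ratios that turned were those of Fth1 (0.56 in WT for JAK2V617F and 0.18 for Gli1 knockout with JAK2WT) and Prtn3 (0.14) in cells of at most 10000 UMIs and of Alas1 in Gli1 knockout (0.27) without T cell receptor RNA. Of 391 values of named genes under the alternatives, these 4 included, 313 kept their direction and call or moved by less than their error, 19 lost the call and 55 moved. Alternatives on cells of at most 10000 UMIs and on equal weights were chosen after seeing the data. GFP-positive cells alone gave no share ratio because no chosen cell had GFP, and the comparison with Cd3-positive cells was not run because 3 libraries had under 10 of them. Depth limits WT_JAK2WT most, with 24 cells and a floor of 36.0 CPM.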
